A study of Mus musculus with 28 samples.

Results

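Of the distal enhancers that were bound by Brg1 in mesodermal cultures, 282 no longer carried an H3K27ac region in either replicate after *Brg1* was deleted. These lost enhancers are 26.7% of the 1058 distal enhancers with Brg1, while 33.6% of the distal enhancers without Brg1 were lost. The order depended on width, as the share lost was higher with Brg1 in each width class under 2000 bp. The paper reported a larger fall of H3K27ac at enhancers with Brg1 than at those without, by fold change, which is another measure. Brg1 was present at 7.6% of all 13914 distal enhancers. The lost enhancers were chosen from 3 sets of region lists. A distal enhancer is here a control H3K27ac region, joined across replicates wherever 1 bp was shared, that was called in both of them and lay more than 2.5 kb from every annotated transcriptional start site (TSS). Of these, the 282 overlapped a merged Brg1-FLAG region present in at least 2 of 3 replicates and overlapped no H3K27ac region of 4-OHT replicate 1 or 2. Loss and Brg1 binding are therefore what chose the enhancers, and H3K27ac at the enhancers is given as a description. The remaining 776 Brg1-bound distal enhancers, called kept here, still had an H3K27ac region after 4-OHT and serve as the closest comparison.

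The cultures were mouse embryonic stem cells differentiated as embryoid bodies and then held for 40 h with VEGF, Activin A and BMP4 until day 4, when mesodermal precursors form. The cell line of all samples is labelled *Brg1*f/f; *Actin-CreER*, in which both *Brg1* alleles are floxed and Cre fused to the estrogen receptor is driven from an *Actin* promoter. From day 2, cultures received 200 nM 4-hydroxytamoxifen (4-OHT) in tetrahydrofuran (THF), which deletes *Brg1*, or THF alone (control), so control and 4-OHT cultures share the floxed alleles and the Cre. Chromatin immunoprecipitation and sequencing (ChIP-seq) was performed against FLAG (3 replicates), H3K27ac (2 control and 2 4-OHT), H3K27me3 (3 and 3) and Suz12 (2 and 2), with 11 inputs, 28 samples in all. The labels give the FLAG samples the same cell line as the others, whereas the study describes FLAG ChIP-seq in cells with a FLAG-tagged *Brg1* allele. By the account of the study, Brg1 binding and H3K27ac loss were thus measured in different cell lines. The titles of these samples read Brg1Flag, while the labelled cell line names no FLAG tag. The region lists themselves cannot tell which description holds.

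Brg1 is the ATPase of BAF complexes, which slide and evict nucleosomes and so open DNA to transcription factors. H3K27ac marks active enhancers and promoters, and H3K27me3, placed by the Polycomb complex of which Suz12 is a core subunit, marks repressed developmental genes. Acetylation and trimethylation of the same lysine exclude each other. During mesoderm induction, enhancers of signalling receptors and lineage regulators gain H3K27ac as T-box, forkhead, GATA and Smad factors bind them.

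The deposited data are lists of enriched regions with no score or read count, so sequencing depth is unknown. H3K27ac lists held 37590 and 41062 regions in controls against 36000 and 32161 with 4-OHT. Both 4-OHT lists were thus shorter than both control lists, and loss is absence from the 4-OHT lists. Their covered lengths, 28.0 and 30.8 Mb in controls against 28.5 and 26.1 Mb with 4-OHT, overlapped. H3K27me3 lists covered 8.38 to 11.01 Mb in controls against 4.74 to 8.99 Mb with 4-OHT. FLAG replicates 1 and 2 held 8021 and 8257 regions, but replicate 3 held only 192, so Brg1 binding rests on replicates 1 and 2. Of 26 primitive streak and mesoderm regulators, 17 had promoter H3K27ac in both control replicates, against 4 of 12 endoderm, 5 of 13 neural ectoderm, 3 of 8 extra-embryonic and 13 of 18 pluripotency genes. Over all 22380 protein-coding genes the share was 47.6%.

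Of the lost enhancers, 16 lay nearest to 13 developmental genes from lists of mesoderm, signalling and lineage genes. Their sequence is shown for 10 of these, those with the longest control H3K27ac, because they place a lost Brg1-bound element beside a gene with a known role in development. Each element is named by the nearest protein-coding TSS, so a gene said to have lost an element is only the nearest one. Whether an element acts on that gene was not tested, and for some elements another annotated TSS lay nearer. Each line gives 200 bases of the plus strand of mm9 centred on the Brg1-bound region. Capitals mark exact matches, on either strand, to any of the 11 consensus sequences of at least 7 letters listed with the motif counts.
Cdh11 chr8:105222001-105222200: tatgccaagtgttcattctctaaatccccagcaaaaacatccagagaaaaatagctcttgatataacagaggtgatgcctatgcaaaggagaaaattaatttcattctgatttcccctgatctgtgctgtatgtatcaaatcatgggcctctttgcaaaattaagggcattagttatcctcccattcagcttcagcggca
Fzd7 chr1:59508151-59508350: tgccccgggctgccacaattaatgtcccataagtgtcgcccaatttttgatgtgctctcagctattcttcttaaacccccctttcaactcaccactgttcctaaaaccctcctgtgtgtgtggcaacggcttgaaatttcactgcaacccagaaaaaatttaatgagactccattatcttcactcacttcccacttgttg
Foxc1 chr13:31851938-31852137: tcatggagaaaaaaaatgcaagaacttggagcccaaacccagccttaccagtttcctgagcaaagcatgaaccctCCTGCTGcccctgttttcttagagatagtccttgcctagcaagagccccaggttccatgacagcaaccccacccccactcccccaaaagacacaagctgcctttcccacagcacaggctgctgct
Fgfr2 chr7:137471776-137471975: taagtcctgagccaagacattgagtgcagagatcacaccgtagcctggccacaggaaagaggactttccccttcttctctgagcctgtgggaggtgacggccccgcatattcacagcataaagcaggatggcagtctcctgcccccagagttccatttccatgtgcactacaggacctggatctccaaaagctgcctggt
Fgfr1 chr8:26590976-26591175: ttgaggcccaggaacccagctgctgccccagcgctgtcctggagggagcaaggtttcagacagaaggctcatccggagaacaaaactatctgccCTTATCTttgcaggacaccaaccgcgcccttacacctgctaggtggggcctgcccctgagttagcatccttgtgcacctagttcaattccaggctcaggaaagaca
Cyp26a1 chr19:37814901-37815100: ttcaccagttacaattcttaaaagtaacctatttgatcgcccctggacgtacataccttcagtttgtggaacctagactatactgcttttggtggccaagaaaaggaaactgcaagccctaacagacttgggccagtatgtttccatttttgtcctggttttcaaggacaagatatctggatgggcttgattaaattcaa
Fgfr1 chr8:26595276-26595475: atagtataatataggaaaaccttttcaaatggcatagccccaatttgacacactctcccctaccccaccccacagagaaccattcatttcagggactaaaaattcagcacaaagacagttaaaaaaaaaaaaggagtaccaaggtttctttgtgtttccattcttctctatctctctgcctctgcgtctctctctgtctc
Cxcr4 chr1:130551688-130551887: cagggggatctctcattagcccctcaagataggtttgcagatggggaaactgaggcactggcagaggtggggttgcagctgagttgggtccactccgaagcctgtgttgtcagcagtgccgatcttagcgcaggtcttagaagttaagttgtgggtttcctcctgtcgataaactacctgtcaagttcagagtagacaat
Eomes chr9:118354276-118354475: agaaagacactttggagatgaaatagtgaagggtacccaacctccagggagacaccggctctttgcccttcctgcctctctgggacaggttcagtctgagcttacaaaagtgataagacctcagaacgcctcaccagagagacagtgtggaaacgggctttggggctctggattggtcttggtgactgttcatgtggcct
Pax7 chr4:139314476-139314675: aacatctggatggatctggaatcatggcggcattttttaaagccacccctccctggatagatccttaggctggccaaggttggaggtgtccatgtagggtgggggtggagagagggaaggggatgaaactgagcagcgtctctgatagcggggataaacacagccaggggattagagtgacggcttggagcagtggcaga
Only 2 of these 10 stretches held a match, a Zic consensus in the *Foxc1* element and a GATA consensus in the element of *Fgfr1* farther from the gene. The GC content of the 10 stretches ranged from 39.5 to 56.5%, with 0 to 4 CpG dinucleotides in each.

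The widest of the listed elements lay in an intron of *Cdh11*, which encodes a cadherin of mesenchymal cells. It spanned 2750 bp on chromosome 8 from 105221151 to 105223900, 86.5 kb downstream of the TSS. H3K27ac covered 950 and 2750 bp of it in control replicates 1 and 2. At the *Cdh11* promoter, within 2.5 kb of its TSS, the H3K27ac length was 2475 and 3525 bp in controls against 50 and 575 bp with 4-OHT. The H3K27me3 length there was 936, 1675 and 1125 bp in controls against 1086, 3476 and 4476 bp with 4-OHT. The H3K27ac values of the conditions did not overlap, while those of H3K27me3 did. Taken by replicate number, each H3K27me3 length was higher with 4-OHT, which was not tested for this gene.

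*Cxcr4*, the receptor that guides migrating mesendodermal cells along Cxcl12, had no H3K27ac region called at its promoter in either 4-OHT replicate. Its lost enhancer, 975 bp on chromosome 1 from 130551601 to 130552575 and 63.2 kb upstream, had 575 and 975 bp of H3K27ac in control. Its promoter had 875 and 1500 bp in control. H3K27me3 covered 409, 1434 and 1059 bp of that promoter in controls against 484, 750 and 650 bp with 4-OHT, values that overlapped.

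*Eomes*, a T-box factor that starts the mesoderm and endoderm programmes, lost an element of 1125 bp on chromosome 9 from 118353551 to 118354675, 33.2 kb upstream. The control replicates were far apart there, with 275 and 1125 bp of H3K27ac. The *Eomes* promoter kept a wide H3K27ac region, of 4304 and 5329 bp in controls against 2825 and 3954 bp with 4-OHT. Both 4-OHT values were therefore lower, but most of the mark was still called.

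*Foxc1*, a forkhead regulator of paraxial mesoderm, lost a pair of intergenic Brg1-bound elements upstream. The distal one, on chromosome 13 from 31851326 to 31853100 and 46.3 kb from the TSS, had 675 and 1775 bp of H3K27ac in control. The proximal one, from 31885751 to 31886125 and 12.6 kb from the TSS, had 325 and 350 bp. The nearest annotated TSS of any gene type lay closer, 21.7 and 3.45 kb from the edges of the distal and proximal elements. The nearest H3K27ac region of any 4-OHT replicate was 213.2 and 180.2 kb away from these elements, so the surrounding interval held none. The *Foxc1* promoter itself was almost without H3K27ac in control, with 0 and 75 bp, and carried H3K27me3 over 2101, 4451 and 4551 bp in controls against 1726, 4376 and 3801 bp with 4-OHT. *Cyp26a1*, whose product degrades retinoic acid, resembled *Foxc1* in this. Its lost element 42.2 kb downstream had 850 and 1400 bp in control, and its promoter had no H3K27ac region in any of the 4 libraries.

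Receptors of growth factors and a regulator of their signalling came next. *Fgfr1*, needed for mesoderm cells to leave the primitive streak, lost 2 elements on chromosome 8, from 26590251 to 26591750 (775 and 1500 bp of H3K27ac in control) and from 26594501 to 26595500 (625 and 1000 bp). They lay 33.1 and 29.1 kb upstream. H3K27ac over all 13 annotated TSSs of *Fgfr1* covered 6053 and 6803 bp in controls against 4303 and 4053 bp with 4-OHT. *Fgfr2*, encoding the related receptor, lost an element on chromosome 7 from 137470951 to 137472275 with 1050 and 1325 bp. The element lay 61.3 kb upstream of the nearest *Fgfr2* TSS and is intronic only by a transcript annotated from a far upstream start. Promoter H3K27ac at *Fgfr2* was 4243 and 3743 bp in controls against 3568 and 4193 bp with 4-OHT, which overlapped. H3K27me3 over the 15 TSSs of *Fgfr2* covered 4358, 5900 and 4750 bp in controls against 575, 1200 and 500 bp with 4-OHT, so that every 4-OHT replicate lay far below every control replicate. *Spry4*, which restrains FGF signalling, lost 2 elements 27.7 and 26.8 kb downstream that share 1 Brg1-bound region. They had 325 and 300 bp, and 100 and 525 bp, of H3K27ac in control replicates 1 and 2. Its promoter had 2050 and 2425 bp in controls against 1850 and 2050 bp with 4-OHT. *Fzd7*, a Wnt receptor of gastrulation, lost an element on chromosome 1 from 59507751 to 59509300, 30.5 kb upstream, with 1225 and 1525 bp in control. The nearest 4-OHT region was only 1.02 kb from it, and the *Fzd7* promoter values, 4473 and 4598 bp against 4273 and 4323 bp, lay close together without overlap.

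Ligands and later lineage factors made up the rest. The element of *Jag1*, a Notch ligand, lay 95.0 kb upstream and had 250 and 550 bp of H3K27ac in control. The element of *Bmp2*, a BMP ligand, lay 83.0 kb downstream with 150 and 550 bp. The intronic element of *Runx1*, the regulator of blood stem cell formation, had 350 and 400 bp, and promoter H3K27ac of *Runx1* was 2556 and 2606 bp in controls against 1120 and 1675 bp with 4-OHT. The intronic element of *Pax7*, a paired-box factor of neural and muscle progenitors, had 425 and 700 bp beside a promoter with no H3K27ac in any library. No lost Brg1-bound enhancer lay nearest to a gene of the cardiac, Nodal, pluripotency, endoderm or extra-embryonic lists. These hold 20, 15, 18, 12 and 8 annotated genes, and the share over all listed genes was 5.46%. Their absence is therefore not read as a result. Lost enhancers without Brg1 lay nearest to 3, 4, 8, 3 and 0 genes of these lists.

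**Figure D1:**
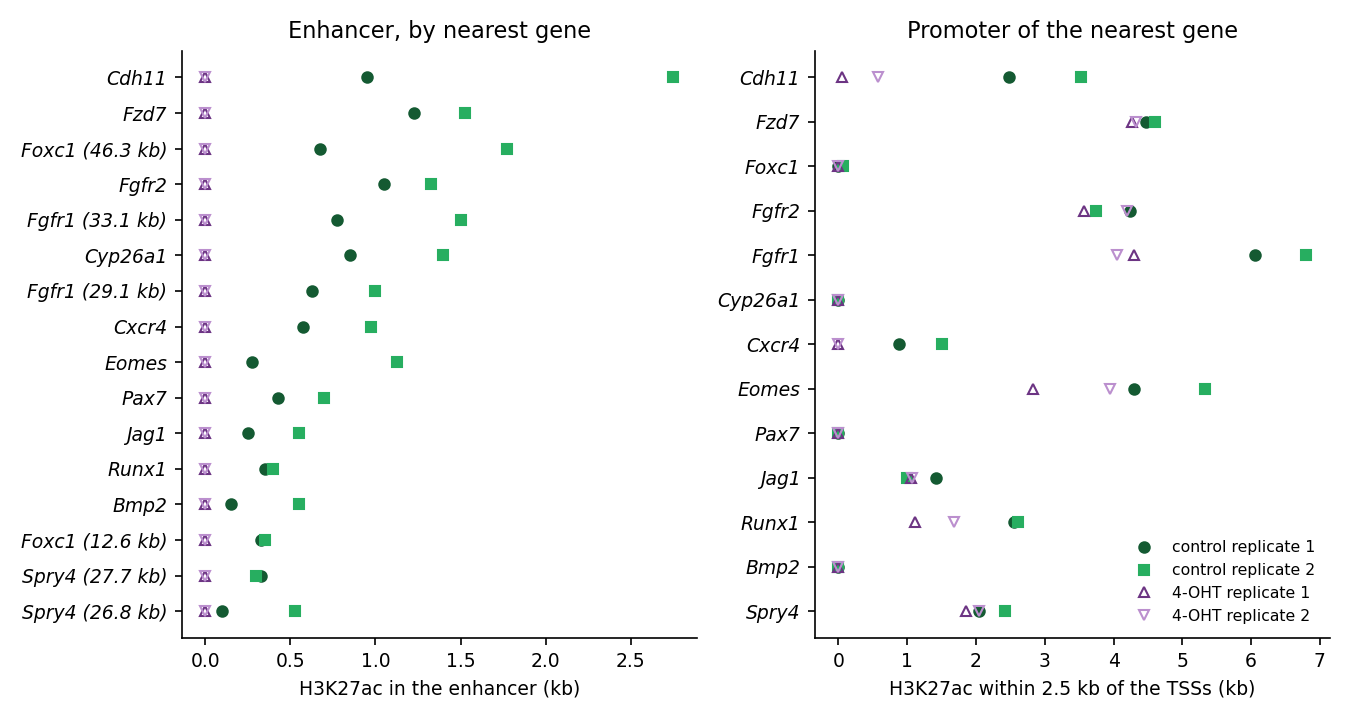
H3K27ac (kb covered, linear axes) in the 16 lost enhancers near listed genes (left, named by nearest gene, with the distance to the TSS where a gene has 2) and within 2.5 kb of all TSSs of the 13 genes (right), with 1 point for each replicate. Every 4-OHT point on the left is at 0 because this chose the enhancers. On the right the 4-OHT points of *Cdh11*, *Cxcr4*, *Fgfr1*, *Eomes*, *Runx1* and, narrowly, *Fzd7* lie below both control points.

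Across the 13 listed genes, promoter H3K27ac was lower in both 4-OHT replicates than in both control replicates at 6, higher at 0 and overlapping at 3, while of all marked protein-coding promoters 12.1% were lower and 39.8% higher. It was absent from all libraries at 3 and in 1 library only at *Foxc1*. H3K27me3 was called in all 6 libraries at 9 of these promoters (and at 1976 of all 22380), at none of the libraries for *Fzd7*, *Fgfr1* and *Spry4*, and in some for *Jag1*. The 13 genes are 5.46% of the 238 annotated listed genes, while lost enhancers were nearest to 1.15% of all protein-coding genes. The 776 kept Brg1-bound enhancers were nearest to 19.3% of the listed genes and to 2.84% of all. These shares are descriptions, since the lists were drawn up with earlier results of these data known.

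The widest of the 282, apart from that of *Cdh11*, lay near genes outside the lists. The widest was intergenic on chromosome 6 from 103759651 to 103762625, 300.3 kb downstream of *Chl1*, a neural cell adhesion gene. H3K27ac covered 2475 and 2975 bp of it in control, and FLAG replicates 1 and 2 covered 575 and 775 bp. The element in *Lhfp*, of 2700 bp, had the longest Brg1 signal of all, with 1225 and 1775 bp. Other elements of at least 2000 bp lay in introns of *Magi1* (a junction scaffold), *Epb4.1l3* (a membrane skeleton protein), *Robo1* (the Slit receptor), *Odz4* and *Tmcc1*, and near *Rgs6* and *Grpel1*. All 10 widest were covered by at least 2000 bp in control replicate 2, but by 625 to 2475 bp in replicate 1. Only 6 lost enhancers were also called in the sparse FLAG replicate 3. These lay nearest to *Shb*, *Nlk* (a kinase that restrains Wnt signalling), *Plekha5*, *2210404J11Rik*, *Fam19a5* and *Faf1*, and replicate 3 covered 75 to 375 bp of them.

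Over all 282 lost enhancers, the merged control regions had a median width of 700 bp (quartiles 475 and 1269, range 175 to 2975), against 2075 bp for kept Brg1-bound enhancers (quartiles 1425 and 2881), 475 bp for 4318 lost enhancers without Brg1 and 825 bp for 8538 kept ones without Brg1. The median of the lost bound enhancers was 325 bp without H3K27ac control replicate 2, 450 bp without FLAG replicate 1, 1250 bp where a 4-OHT region had to cover 50% of the control region to count as kept, and 1275 bp with regions joined within 1 kb. Among bound enhancers the share lost was lower at greater width. Under 500 bp, 79 of 102 bound enhancers (77.5%) were lost, and from 500 to 1000 bp 103 of 189 (54.5%). From 1000 to 2000 bp the number was 90 of 343 (26.2%), and at 2000 bp or more 10 of 424 (2.36%). Without Brg1 the same width classes lost 48.3, 34.1, 21.8 and 4.70%, so the share was higher with Brg1 in the 3 narrower classes and lower in the widest. Width comes from the control libraries that defined the enhancers, and these shares carry no test. Any base shared with a 4-OHT region counted as kept, so a wider region had more bases at which to be kept. The rule itself therefore favours narrow regions among the lost. Kept bound enhancers had median H3K27ac lengths of 1700 and 2050 bp in controls against 800 and 1150 bp with 4-OHT.

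**Figure D2:**
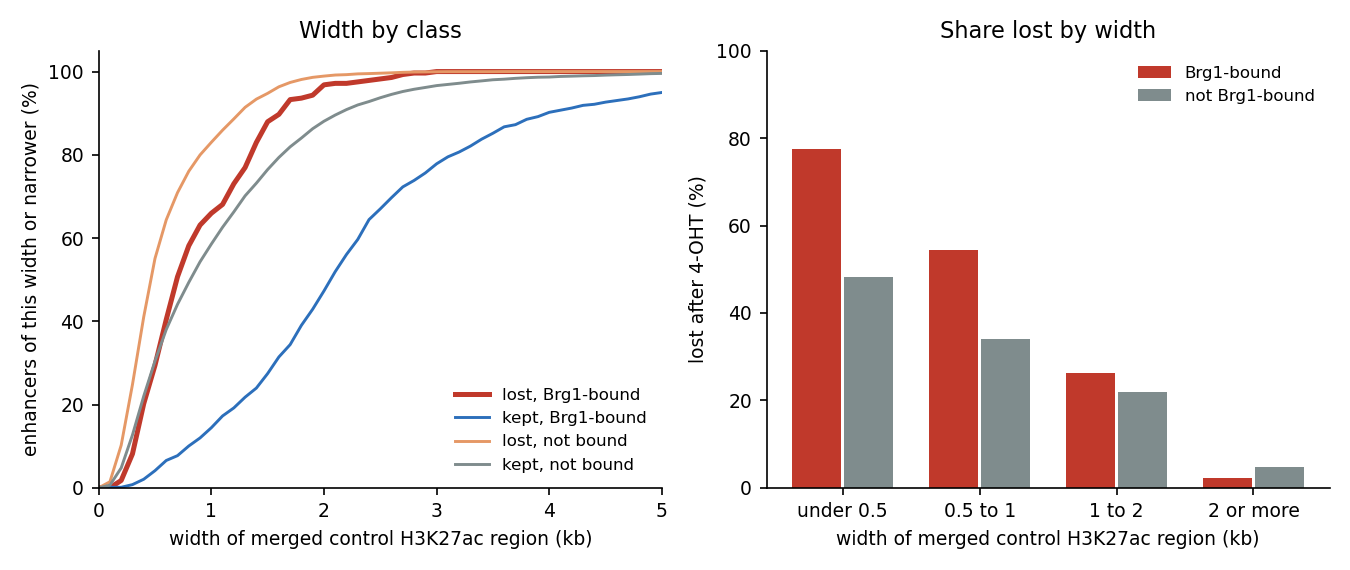
Left, cumulative share of enhancers (%) by the width of the merged control H3K27ac region (kb) in 4 classes set by Brg1 binding and by loss after 4-OHT. Right, share lost (%) by width class for Brg1-bound and other distal enhancers. The curve of lost bound enhancers (median 700 bp) lies far to the left of that of kept bound ones (median 2075 bp), and the bars of bound enhancers fall from 77.5 to 2.36%. Any shared base counts as kept, which favours narrow regions among the lost.

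The 2 control replicates did not mark the lost enhancers alike. H3K27ac covered a median of 362.5 bp in control replicate 1 and 700 bp in replicate 2, and replicate 1 was shorter in 272 of 282 (96.5%). The same held for 86.3% of kept bound, 87.9% of lost unbound and 47.7% of kept unbound enhancers. The lower value of replicate 1 was thus shared by bound and by lost enhancers. With control replicate 2 as the only control, 433 bound enhancers were lost. The part of this replicate difference in which enhancers count as lost was not tested.

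FLAG replicate 1 covered a median of 175 bp in 279 of the lost enhancers, and replicate 2 225 bp in 281. In kept bound enhancers the medians were 250 and 325 bp. Replicate 3 was called in 2.13% of lost and 10.3% of kept bound enhancers. A single Brg1-bound region was found in 274 lost enhancers, 2 in 7 and 3 in 1. In 180 (63.8%) the centre of the widest such region fell in the central 50% of the H3K27ac region. The overlap that chose the enhancers constrains this position, and the share was not compared with other classes. Around the centre of the Brg1-bound region H3K27ac was called in 74.5% and 93.3% of lost enhancers in control replicates 1 and 2. At 300 bp upstream on the chromosome these shares were 23.4 and 56.7%, and at 300 bp downstream 25.9 and 52.1%. At 500 bp upstream they were 28.4 and 50.4%, and at 500 bp downstream 24.1 and 46.1%. In kept bound enhancers the shares at the centre were 95.5 and 98.3% in control and 65.9 and 78.0% after 4-OHT, and at 300 bp upstream 78.2 and 88.3% in control.

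**Figure D3:**
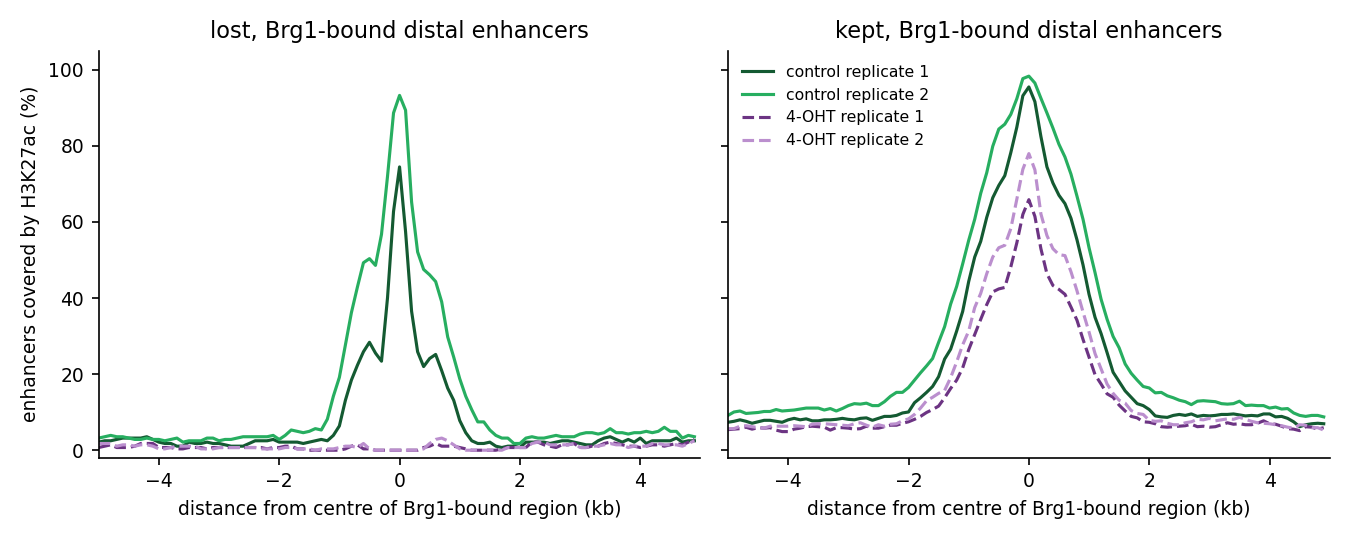
Share of enhancers (%) covered by an H3K27ac region, in windows of 25 bp every 100 bp, by distance (kb) from the centre of the Brg1-bound region, for the 282 lost (left) and 776 kept (right) Brg1-bound distal enhancers and each of the 4 libraries. In lost enhancers control replicate 2 (93.3% at the centre) lies above replicate 1 (74.5%), and 4-OHT is at 0 at the centre by the choice of enhancers. In kept enhancers both 4-OHT curves (65.9 and 78.0%) lie below both control curves at the centre.

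The centres of the lost enhancers lay a median of 42.7 kb from the nearest protein-coding TSS (quartiles 17.6 and 101 kb), against 31.8 kb for kept bound, 36.8 kb for lost unbound and 25.2 kb for all distal enhancers, and 71 (25.2%) lay over 100 kb away. The median was 72.8 and 75.2 kb without FLAG replicate 1 or 2, where 7 and 6 enhancers are left. Introns held 140 (49.6%), intergenic sequence 137 (48.6%) and exons 5 (1.77%), while of kept bound enhancers 41.4% were intronic and 7.47% exonic. The nearest genes were 255, of which 228 had 1 lost enhancer and 27 had 2, among them *Fgfr1*, *Foxc1*, *Spry4*, *Nlk*, *Magi1*, *Ebf1* and *Cadm1*. Some of these pairs are close neighbours, as 30 lost enhancers had another within 5 kb. After 4-OHT the nearest remaining H3K27ac region was a median of 27.2 kb away, against 17.6 kb for lost unbound enhancers, and 24 (8.51%) had one within 1 kb.

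Distal enhancers near the 282 were also often lost. Of 172 distal enhancers outside the set but within 10 kb of one of its members, 97 (56.4%) were lost too, as were 219 of 449 (48.8%) within 50 kb, compared with 31.7% of all 13632 others. Around kept bound enhancers 37.8% within 10 kb and 36.5% within 50 kb were lost, against 35.0% of all others there. Around lost enhancers without Brg1 the share was also raised, with 6.17% lost within 10 kb against 2.94% of all others. Each count leaves out the class itself, so only the 282 could count as lost there. Around kept enhancers without Brg1 the share within 10 kb was lower, 79.4% against 85.6%. These neighbours were called from the same libraries, so the shares are descriptions, and 73 of the 282 had no other distal enhancer within 50 kb. The lost enhancers were spread over all 19 autosomes, with most on chromosome 11 (32, or 11.3%, where 6.46% of all distal enhancers lie) and none on X, which holds 1.70%. Close neighbours were counted separately, as near *Nlk* and *Ebf1* on chromosome 11.

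The lists of H3K27me3 and Suz12 took no part in choosing the enhancers, and address whether Polycomb marks were called where H3K27ac had been. No lost enhancer overlapped an H3K27me3 region in any of the 6 libraries or a Suz12 region in any of the 4, and 0 of 282 allows a share of up to 1.06% for counting error alone. Over all distal enhancers the background was 0.41% with H3K27me3 in any control replicate and 0.352% in any 4-OHT replicate, and 0.0934% and 0.266% with Suz12. The difference between conditions was 0 for both marks (two-sided exact permutation test, p = 1), and the smallest p allowed is 0.1 for 3 replicates against 3 and 0.33 for 2 against 2.

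Within 5 kb of the lost enhancers H3K27me3 was called near 9, 7 and 6 of the 282 in controls against 3, 3 and 3 with 4-OHT. The share averaged 2.60% ± 0.542 (SD, n = 3) in controls, with 1.06% ± 0 (SD, n = 3) for 4-OHT. The groups did not overlap, but this design cannot pass 0.05 (exact permutation test, p = 0.1, the smallest possible). None of the 282 had H3K27me3 within 5 kb only after 4-OHT. That number is not given here for other distal enhancers, so it has no background and is not read as a result. Near all 13914 distal enhancers the counts for each library were 491, 362 and 320 in controls against 251, 302 and 267 with 4-OHT, also without overlap. Near kept bound enhancers they were 37, 28 and 22 against 27, 21 and 22, which overlapped (exact permutation test, p = 0.3). The H3K27me3 lists also covered less of the genome in each 4-OHT replicate than in the control replicate of the same number, and its part in these counts was not tested. Suz12 was called within 5 kb of 2 and 2 lost enhancers in controls against 3 and 3 with 4-OHT (exact permutation test, p = 0.33, the smallest possible). Over all distal enhancers the Suz12 counts were 101 and 95 in controls against 148 and 202 with 4-OHT.

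At the promoters of the nearest genes, a lower H3K27ac length with 4-OHT was seen at a larger share than over all marked promoters. Of the 255 genes, 182 had promoter H3K27ac in any of the 4 libraries, and in 55 (30.2%) the 4-OHT values were both under the control ones, where the background is 12.1% of 11908 marked protein-coding genes. Both lay above in 41 (22.5%), where the background is 39.8%. Counted over all genes, marked or not, these backgrounds are 6.45% and 21.2%. Nearest genes of kept bound enhancers were lower in 24.2% and higher in 26.0%. The mean H3K27ac length at the 255 promoters was 1137 and 1195 bp in controls against 1097 and 1050 bp with 4-OHT, a mean difference of -92.1 bp. Over all 22380 protein-coding genes it was 762 and 746 bp against 846 and 803 bp, a difference of 71.04 bp. Neither difference can pass 0.05 with 2 replicates (exact permutation test, p = 0.33 for each, the smallest possible). The same H3K27ac libraries chose the lost enhancers, so this is a description. Promoter H3K27ac was called in both control replicates and neither 4-OHT replicate at 5 of 164 genes (3.05%), near the background of 2.06%. For nearest genes of lost unbound and kept bound enhancers the shares were 2.90 and 2.46%, so the count is not read as a result. The 5 genes were *Cxcr4*, *Lpar1* (a lysophosphatidic acid receptor, 175 and 675 bp in control), *Cntnap2* (250 and 250 bp), *Rbm20* (200 and 275 bp) and *Tspan2* (100 and 25 bp), the last 4 chosen after their values were seen.

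Polycomb marks were called at many promoters of the nearest genes. H3K27me3 lay at 34.1, 32.9 and 32.5% of the 255 promoters in controls against 24.3, 31.8 and 27.1% with 4-OHT, which is 33.2% ± 0.816 against 27.7% ± 3.77 (SD, n = 3 each). The groups did not overlap (exact permutation test, p = 0.1, the smallest possible). Over all protein-coding genes the shares were 14.6% ± 1.67 and 12.1% ± 0.905 (SD, n = 3 each), and at nearest genes of kept bound enhancers 25.9% ± 1.52 and 21.5% ± 1.56 (SD, n = 3 each), also with all 4-OHT values lower (exact permutation test, p = 0.1 for each). Of 100 promoters with H3K27me3 in any library, all 4-OHT lengths lay below all control lengths at 13 (13%), near the background of 11.2%, and above at 1, *Lhfp*, where the background is 0.219%. *Fgfr2* was among the 13, as were *Elavl2* (2300, 3475 and 2600 bp in controls against 1550, 2250 and 1600 bp with 4-OHT) and *Baiap2* (850, 1225 and 950 bp against 175, 0 and 0 bp), the latter pair and *Lhfp* named after their values were seen. Suz12 was at 18.04 and 18.04% of the 255 promoters in controls against 21.96 and 28.2% with 4-OHT (exact permutation test, p = 0.33, the smallest possible), and over all protein-coding genes at 6.83 and 6.88% against 8.19 and 10.04%. At 32 of 73 promoters with Suz12 (43.8%) both 4-OHT values were higher, where the background is 32.2%, and both were lower at 1, where it is 5%. The Suz12 lists held 2951 and 2913 regions in controls against 3654 and 4016 with 4-OHT, and the part of this in these counts was not tested. The paper reported a modest fall of Suz12 read density at H3K27me3-marked promoters of genes upregulated without Brg1, which is another set and measure.

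**Figure D4:**
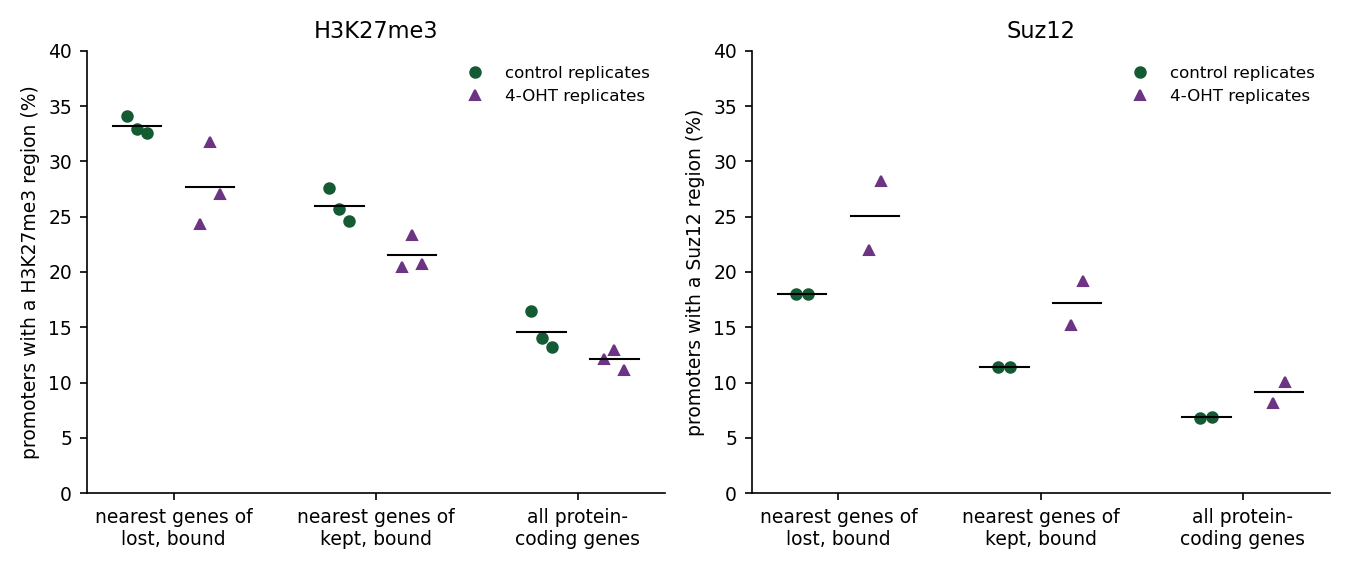
Share of promoters (%) with an H3K27me3 (left) or Suz12 (right) region within 2.5 kb of a TSS, for the 255 nearest genes of lost bound enhancers, the 631 of kept bound ones and all 22380 protein-coding genes, with 1 point for each replicate and a line at the mean. The 3 control points of H3K27me3 lie above the 3 4-OHT points in each set, and the points of Suz12 lie the other way round.

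Sequence was compared in the central 500 bp of each enhancer by exact matches to 15 short consensus sequences on both strands. The letters searched were AGGTGTGA for T-box factors, AGATAAG for GATA factors, TGTTTAC for Fox, AATCCACA for Foxh1, CAGCAGG for Zic, ATGCAAAT for Oct, ACAATGG for Sox, ATCAAAG for TCF/LEF, TAATTA for homeobox factors, TGACTCA for AP-1, ACATTCC for TEAD, TCAAGGTCA for Esrrb, CAGGTG for the Snai/Zeb E-box, CAGCTG for the bHLH E-box and GGGCGG for Sp/Klf. The T-box and Snai/Zeb sequences overlap in AGGTG. Shares are descriptions of these windows, and intervals are exact binomial at 95%.

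In the 500 bp windows, placed at the centre of the enhancer or of the Brg1-bound region or limited to a band of widths, the Fox, Sp/Klf, Sox, Zic and homeobox sequences had lower shares in lost than in kept bound enhancers each time. The Foxh1 and bHLH sequences had higher shares each time, and the order of the others depended on the window. The Fox sequence occurred in 17 of 282 lost (6.03%, interval 3.55 to 9.48) and 86 of 776 kept bound enhancers (11.1%, interval 8.96 to 13.5), and in 7.24% of all distal enhancers. In 500 bp centred on the Brg1-bound region the shares were 4.26 and 12.1%. Among enhancers of 475 to 1269 bp, the interquartile widths of the lost ones, they were 4.93% of 142 and 14.6% of 137. The intervals of the central windows overlap, while those of the windows centred on Brg1 do not (2.22 to 7.32 and 9.90 to 14.6). In lost enhancers without Brg1 the central share was 6.97%, so the lost bound share lay near that class and near all distal enhancers.

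The GATA sequence occurred in 10.3% of lost and 12.4% of kept bound enhancers, and in 8.32% of all. TCF/LEF matches were in 12.1 and 13.9%, against 9.26% of all, and homeobox matches in 16.7 and 17.1%, against 12.9%. AP-1 matches were in 6.74% of lost bound, 12.8% of kept bound and 10.1% of lost unbound enhancers, and in 15.4% of all, but in the band of 475 to 1269 bp the shares of lost and kept bound were 9.86 and 8.03%, so their order changed. Within that band lost enhancers were still narrower than kept ones. The Foxh1 sequence was in 6.03% of lost and 4.38% of kept bound enhancers, against 3.51% of all, and the bHLH E-box in 34.0 and 28.2%, against 27.03%. The T-box sequence was in 2.84 and 5.28% of the central windows but in 5.67 and 4.90% of windows centred on Brg1, so its order depended on the window. The Sp/Klf sequence was in 9.22 and 15.5%, against 13.3%, and the Sox sequence in 5.67 and 8.25%, against 6.95%. Median GC content was 47.2% in lost and 47.8% in kept bound enhancers and 47.4% in all.

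**Figure D5:**
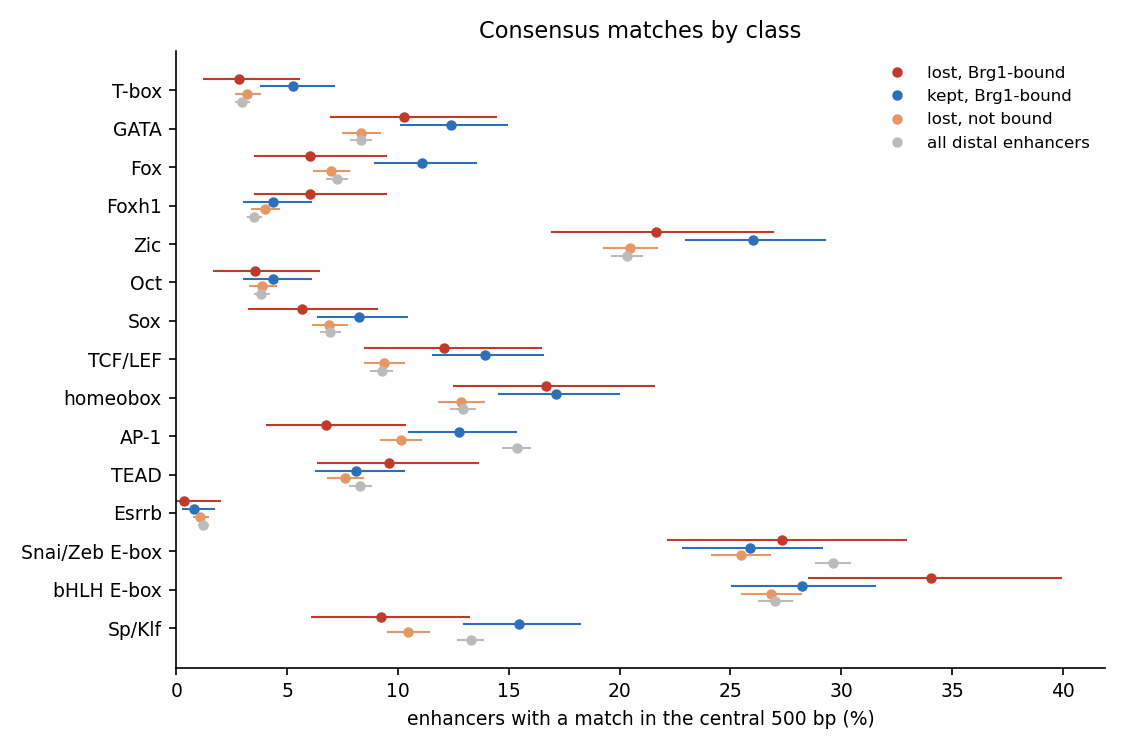
Share of enhancers (%) with an exact match to each of 15 consensus sequences in the central 500 bp, by class, with exact binomial 95% intervals as lines. The Fox row has the lost bound point (6.03%) below the kept bound one (11.1%), and the AP-1 row has both below all distal enhancers (15.4%).

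Many enhancers lay close to the limits of the rule. Of the kept bound enhancers, 33 had at most 100 bp and 80 at most 200 bp of 4-OHT H3K27ac over both replicates, and 120 were called in 1 of the 2 replicates only, 95 of them in replicate 2. No lost enhancer had a 4-OHT region within 250 bp. On the side of Brg1, 662 lost enhancers were left out because only 1 of FLAG replicates 1 and 2 was called in them, and 64 because the regions of the 2 replicates did not meet. Just 3 lost enhancers lay 2.5 to 3 kb from a TSS, and 3 further lost bound regions lay 2 to 2.5 kb away.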

How the data were processed

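ChIP-seq against FLAG, H3K27ac, H3K27me3 and Suz12 was analysed from 17 deposited lists of enriched regions, and the 11 inputs have no list of their own. The values the authors deposited are chromosome, start and end of each region on a grid of 25 bp, with no score, read count or p-value. Per the labels and methods, the authors aligned reads to mm9 with Bowtie (version not given in the sources used here) and called regions for each replicate over input, at a threshold of 1e-06 and 2-fold enrichment for FLAG and of 1e-12 for the others. Wide or weak enrichment can therefore be split or missed, depth is unknown, and a region that is absent was not called rather than shown to be unmarked. The labels call the samples biological replicates.

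Regions were merged and classified in Python 3.11.15 (NumPy 2.4.6, SciPy 1.17.1, pysam 0.24.0, Matplotlib 3.10.9) with mm9 and GENCODE annotation of that build (86879 TSSs of 37310 genes, 22380 of them protein-coding), any shared base counting as overlap. Sequence comes from the mm9 genome. The classification was tested on simulated regions. Groups followed the sample labels. Conditions were compared over replicates by two-sided exact permutation tests, and enhancer classes by description only. Intervals are exact binomial at 95%, limits of 0 use 3 counts, and both cover counting error only.

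Named enhancers were those nearest to a gene of 14 lists (the 25 with most control H3K27ac), the 10 widest, up to 10 with all 3 FLAG replicates, and genes nearest to at least 3 enhancers, of which there were none. The enhancers and the lists were chosen with earlier results of these data known.

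Deviations from the condition means in covered length correlated between H3K27me3 libraries of the same number (0.932, 0.875 and 0.796), so replicate numbers were taken to pair these libraries, as judged from the data and not from a stated shared batch. Unlike numbers 2 and 3 also correlated (0.692 and 0.760), while number 1 correlated negatively with both, so the numbers mainly set replicate 1 apart. In covered share of a region the correlations were 0.226, 0.178 and 0.0654. For H3K27ac and Suz12, with 2 pairs each, the covered lengths gave 0.418 and 0.444, which is not enough to call them paired.

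Alternatives concerned region width, overlap, merging, the TSS distance, the FLAG rule, leaving out each replicate and a replicate block. Motif shares within the interquartile width were added after the data were seen.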

Additional observations from a re-analysis of the deposited data

How the results depend on the processing

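The number of lost Brg1-bound enhancers depended strongly on the rule. It was 282 as described, 571 when a 4-OHT region had to cover at least 50% of a control region for it to count as kept, 95 with regions of at least 200 bp in every list and 1008 with FLAG in any replicate. The share lost was 26.7% as described, 53.97% with the 50% cover, 32.5% with FLAG in any replicate and 38% when absence from either 4-OHT replicate counted as loss. Leaving out 1 library at a time gave 6 to 433 lost bound enhancers and shares of 8.33 to 35.6%. The highest number came without H3K27ac control replicate 1, and the 6 and 7 enhancers came without FLAG replicates 2 and 1, because replicate 3 is sparse. The H3K27ac difference at nearest promoters (-92.1 bp) ranged from -121.2 to 120.8 bp when leaving 1 library out. It changed sign, to 120.8 bp, without FLAG replicate 1 and without FLAG replicate 2, where 7 and 6 enhancers are left, and ranged from -112.7 to -38.8 bp under other settings. The H3K27me3 difference within 5 kb (-1.54 percentage points) ranged from -1.77 to 0, with 0 in those same FLAG settings, and from -1.58 to -0.926 under other settings. The differences in overlap at the lost enhancers themselves, 0 for both marks, ranged from 0 to 0.117 percentage points for H3K27me3 and from 0 to 0.175 for Suz12. The H3K27me3 difference at nearest promoters stayed negative, from -7.52 to -3.79 percentage points, over the 25 alternatives run. None of these tests could pass 0.05 at these replicate numbers. With the replicate block the H3K27me3 difference within 5 kb was -1.54 (exact test over pairs, p = 0.25, the smallest that 3 pairs allow). Neither form of the test could pass 0.05, so the block could not have changed a call. Of 45 alternative motif shares, 13 moved beyond their intervals. Without read counts, depth sets an unknown limit on which regions could be called.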
